A study of Mus musculus with 6 samples.

Results

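The cytochrome P450 family 4 genes that carry out omega-hydroxylation of fatty acids were followed in the livers of mice in which the E3 ubiquitin ligase gene Rnf10 was knocked down. The 10 genes chosen were Cyp4a10, Cyp4a12a, Cyp4a12b, Cyp4a14, Cyp4a31, Cyp4a32, Cyp4f13, Cyp4f14, Cyp4f15 and Cyp4v3, taken as a fixed list of the Cyp4a, Cyp4f and Cyp4v genes of mouse liver out of 55487 gene identifiers in the count table. All 10 were present and all 10 passed the filter on low counts, among 14046 genes tested. The table held 17 further Cyp4 entries, of which 4 were tested. Liver RNA was sequenced from 6 wild-type male mice on normal chow at 17 weeks of age, all marked as 1 batch. The control group was 3 mice given GalNAc-siNC, a control siRNA, and the knockdown group was 3 mice given GalNAc-siRnf10, which the study's text calls GalNAc-siRnf10-2, both by subcutaneous injection. N-acetylgalactosamine (GalNAc) directs an siRNA to the receptor for asialoglycoproteins on hepatocytes, and the knockdown was partial and made with a single siRNA sequence. The number of counted fragments per library was between 26854377 and 33058645, and 3 counts corresponded to at most 1.12e-05% of a library. The 6 libraries were not equally alike. GalNAc-siNC mouse 1 differed from the other control mice by a chi-square of 27.8 and 27.1 per gene, against 9.53 between control mice 2 and 3 and between 4.45 and 5.07 within the knockdown group, so the calls of single Cyp4 genes are also given without single mice. Of the gene lists further on, only the counts of called partner genes and PPARα targets were recomputed in this way.

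Enzymes of this family sit in the endoplasmic reticulum and add a hydroxyl group to the last carbon of a fatty acid, using electrons that cytochrome P450 reductase delivers. Alcohol and aldehyde dehydrogenases then turn the product into a dicarboxylic acid, which peroxisomes shorten. The route is a minor one in the fed liver and is known to expand in fasting and under agonists of PPARα, the nuclear receptor that drives Cyp4a10 and Cyp4a14. Cyp4a12a and Cyp4a12b are known as male-biased hydroxylases of arachidonic acid, Cyp4f enzymes also act on leukotrienes, and Cyp4v3 is the mouse counterpart of the human gene mutated in Bietti crystalline dystrophy.

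Of the 10 genes, 4 were higher in GalNAc-siRnf10 livers and none was lower at an adjusted p under 0.05, by the quasi-likelihood F-test of edgeR adjusted over all tested genes (Benjamini-Hochberg). The 4 were Cyp4a12a, which rose the most at 39.3%, followed by Cyp4v3, Cyp4a12b and Cyp4f13, which rose between 17.4% and 20.9%. The PPARα-responsive Cyp4a14 had the opposite sign, with a fitted difference of -27.1% that did not pass (adjusted p = 0.060, edgeR). Across all tested genes, 14.0% were called in either direction, 6.71% higher and 7.28% lower. With an offset for the GC content and length of the genes, the tally was 3 higher and 1 lower, since Cyp4a12b was then not called and Cyp4a14 was called lower. The members called higher were 2 when GalNAc-siNC mouse 3 or any 1 of the GalNAc-siRnf10 mice was left out. Without mouse 2 of either group, 1 member, Cyp4a14, was called lower. The median log2 fold change was 0.12 over the 10 members and 0.0022 over all tested genes. Among the 4 other tested Cyp4 genes, none was called higher and 1, Cyp4f17, was called lower (-0.45, adjusted p = 0.014, edgeR). The tally and median of the members therefore hold for the fixed list only.

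The Cyp4a members lie in 1 cluster on chromosome 4 (GRCm38), between the start of Cyp4a12a at 115299046 and the end of Cyp4a32 at 115621602. Cyp4f13, Cyp4f14 and Cyp4f15 lie in a cluster on chromosome 17, between 32685627 and 32947402, and Cyp4v3 stands alone at chr8:45304944-45333216 on the minus strand. Several Cyp4a members are near copies of each other, and how the counting treated reads that match more than 1 gene is not given in the sources used here. Cyp4a12a and Cyp4a12b differed at 23 of 1524 aligned coding bases (98.5% identity) and shared an identical run of 401 bases. The stretches below, from exon 6 of 12 in each gene (chr4:115326628-115326687 for Cyp4a12a and chr4:115432881-115432940 for Cyp4a12b, both plus strand, GENCODE M21), show the densest differences between the pair, with the 4 differing positions in capitals.
Cyp4a12a: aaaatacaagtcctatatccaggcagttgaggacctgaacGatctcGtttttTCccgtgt
Cyp4a12b: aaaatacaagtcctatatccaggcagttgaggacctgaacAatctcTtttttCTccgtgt

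Cyp4a10, Cyp4a31 and Cyp4a32 formed a second set of close copies, with coding identities between 96.0% and 97.2%. Their exon 2 stretches (chr4:115519640-115519699 for Cyp4a10, chr4:115565020-115565079 for Cyp4a31 and chr4:115602270-115602329 for Cyp4a32, plus strand) are shown for the same reason, with the 9 positions at which the 3 genes are not all alike in capitals.
Cyp4a10: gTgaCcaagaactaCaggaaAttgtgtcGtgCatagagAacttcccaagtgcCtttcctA
Cyp4a31: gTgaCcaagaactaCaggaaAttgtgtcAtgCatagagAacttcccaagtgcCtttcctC
Cyp4a32: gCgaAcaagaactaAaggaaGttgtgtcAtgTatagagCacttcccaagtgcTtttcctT

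The sequencing reads were 150 bases long, and windows of that length set how much of a gene could not be told from another by a single read. Such windows took up 25.6% of the Cyp4a12a transcript and 25.9% of the Cyp4a12b transcript, all of them shared between that pair. They took up 7.97% of Cyp4a32, 4.34% of Cyp4a10 and 4.19% of Cyp4a31. The corresponding share was 4.48% of Cyp4v3, where the other gene was Gm45753, a predicted gene that overlaps Cyp4v3 by 313 bases on the same strand and had a mean of 0.667 counts. No window of Cyp4a14, Cyp4f13, Cyp4f14 or Cyp4f15 was shared at this length. The reads were paired, so a fragment could span more of a gene than a single read. For windows of 300 bases the shares were 5.28% of Cyp4a12a, 5.34% of Cyp4a12b and 0.399% of Cyp4v3. They were 0% of Cyp4a10, Cyp4a31 and Cyp4a32. Values for Cyp4a12a against Cyp4a12b, and among Cyp4a10, Cyp4a31 and Cyp4a32, are therefore uncertain to the extent that reads were divided between the copies, and sums over each set are given beside them.

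Rnf10 was examined first as a check of the labels. GalNAc-siNC mice 1, 2 and 3 had 3869, 4536 and 4040 normalized counts of it, and GalNAc-siRnf10 mice 1, 2 and 3 had 1738, 1821 and 1793. Every knockdown mouse was below every control mouse, and the fitted change was -1.22 on the log2 scale (SE 0.071, adjusted p = 3.29e-09, edgeR). In whole liver, fewer cells that express a gene and less RNA of that gene per cell cannot be told apart. Cpt1a, the carnitine palmitoyltransferase of mitochondrial fatty acid oxidation whose protein the study follows, had overlapping groups (14277 ± 920 against 14738 ± 127 normalized counts, SD, n = 3 each) and was not called (log2 fold change 0.046, adjusted p = 0.66, edgeR).

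Cyp4a12a had normalized counts of 6310.3, 5493 and 6224 in the GalNAc-siNC mice and 8275, 8238 and 8610.2 in the GalNAc-siRnf10 mice. All knockdown values lay above all control values, with a gap wider than the range of either group. The log2 fold change was 0.48 (SE 0.063, 95% interval 0.35 to 0.61, adjusted p = 4.93e-05, edgeR). The gene was called in each of the 6 fits that left out 1 mouse. Its near copy Cyp4a12b had 1818, 1514 and 1593 normalized counts in the controls and 1883, 1987 and 2063 in the knockdown mice. The groups did not overlap, but control mouse 1 came close to the lowest knockdown mouse. The log2 fold change of Cyp4a12b was 0.27 (SE 0.078, adjusted p = 0.030, edgeR), and it was called in only 1 of the 6 fits that left out a mouse, the one without control mouse 1. It was also not called with the offset for GC content and length (0.18, adjusted p = 0.064, edgeR). Taken as a sum, which does not depend on how reads were divided between the pair, Cyp4a12a and Cyp4a12b had 7651 ± 578 normalized counts in the controls and 10352 ± 280 in the knockdown mice (SD, n = 3 each), without overlap. The exact two-sided permutation test of that sum gave p = 0.1, the smallest value that 3 mice against 3 allow.

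Cyp4v3 had 10785, 9816 and 10002 normalized counts in the control mice and 12423, 12136 and 12448 in the knockdown mice. The knockdown values were close together and all above the controls. The log2 fold change was 0.27 (SE 0.056, 95% interval 0.16 to 0.39, adjusted p = 0.0027, edgeR), and the gene was called in 6 of 6 fits that left out a mouse. Cyp4f13, a Cyp4f gene of the chromosome 17 cluster, had 2052, 2227 and 2159 normalized counts in the controls against 2604, 2522 and 2427 in the knockdown mice, again without overlap. Its log2 fold change was 0.23 (SE 0.067, adjusted p = 0.028, edgeR), and the call was kept in 2 of the 6 fits that left out a mouse. Those were the fits without control mouse 1 and without control mouse 2.

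The remaining Cyp4f members, both known to act on leukotriene B4, were the steadier ones. Cyp4f14 had 7826, 8766 and 8217 normalized counts in the controls and 8557, 8791 and 8676 in the knockdown mice, so that control mouse 2 lay within the knockdown range. Its log2 fold change was 0.069, with a 95% interval of -0.053 to 0.19 (adjusted p = 0.49, edgeR). Cyp4f15 had 3982, 3765 and 3684 normalized counts in the controls and 3824, 4054 and 3890.3 in the knockdown mice. Its groups overlapped, and its log2 fold change of 0.042 had a 95% interval of -0.089 to 0.17 (adjusted p = 0.72, edgeR). The upper bounds of both intervals lay below the estimates of Cyp4v3 and Cyp4f13, but a difference between the genes was not tested.

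**Figure D1:**
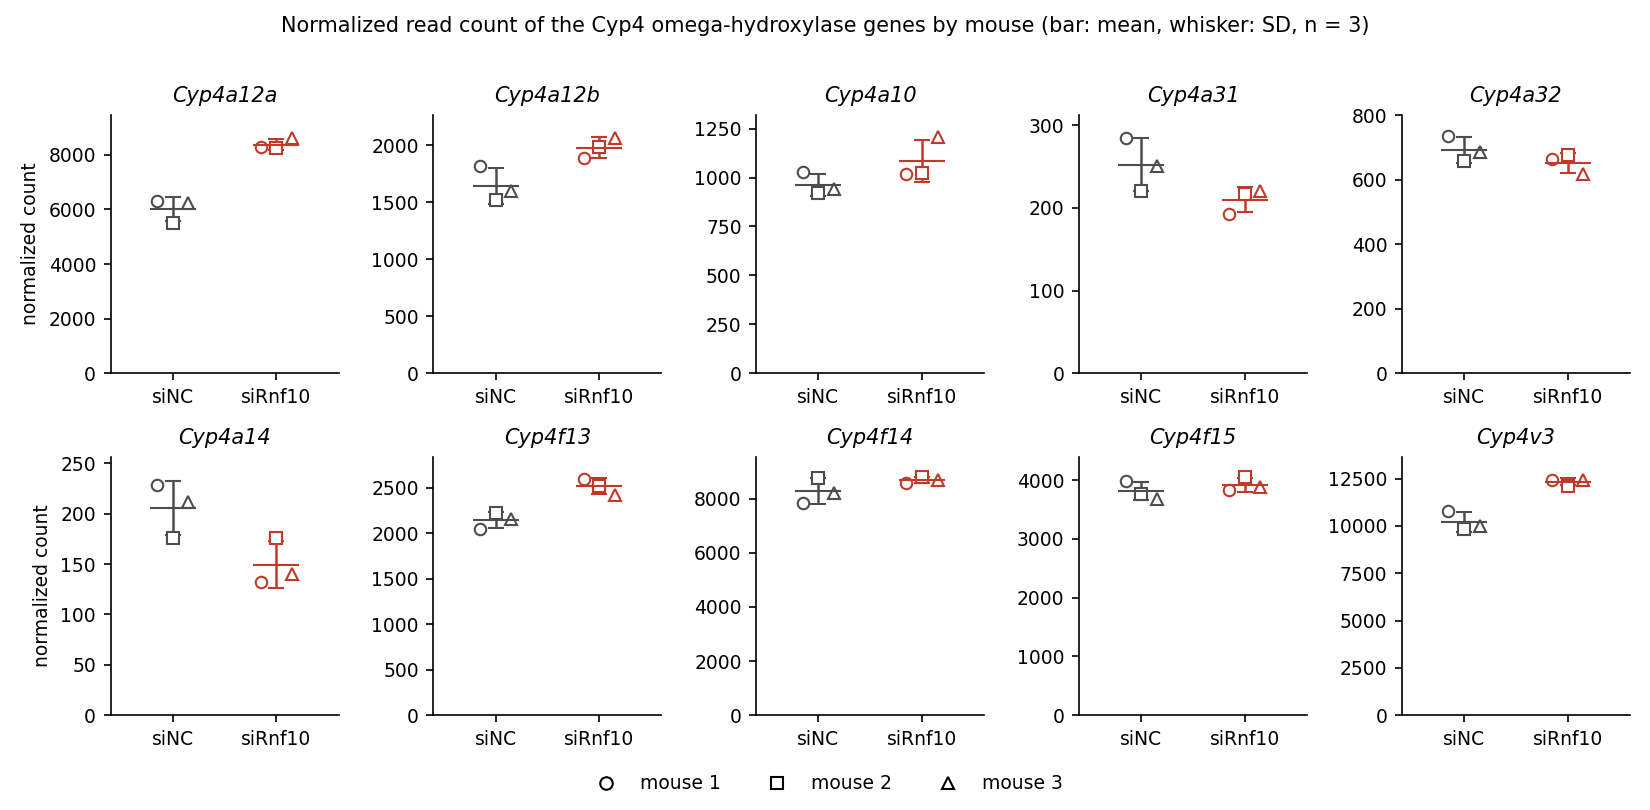
Normalized read count (y axis, counts scaled to the mean library size, from 0) of each of the 10 genes in every mouse, GalNAc-siNC in gray and GalNAc-siRnf10 in red, with the mouse number given by the symbol. Horizontal bars are means and whiskers the SD of 3 mice, and Cyp4a12a, Cyp4a12b, Cyp4f13 and Cyp4v3 have all red points above all gray points.

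Cyp4a14, the member best known as a PPARα target, had 228.9, 176.4 and 211.5 normalized counts in the GalNAc-siNC mice and 132.3, 175.9 and 140.6 in the GalNAc-siRnf10 mice. All knockdown mice were below all control mice, but knockdown mouse 2 and control mouse 2 were separated by less than 1 normalized count. The log2 fold change was -0.46 (SE 0.15, 95% interval -0.78 to -0.13), and the adjusted p of 0.060 in edgeR missed the threshold. The call was made in 2 of the 6 fits that left out a mouse, at -0.56 without control mouse 2 (adjusted p = 0.037) and -0.59 without knockdown mouse 2 (adjusted p = 0.047, edgeR). With the offset for GC content and length it was called at -0.53 (adjusted p = 0.012, edgeR). Cyp4a14 shared no window of 75 or 150 bases with another gene.

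Cyp4a10, also a known PPARα target, had 1026, 920.0 and 941.6 normalized counts in the controls and 1021, 1023 and 1208 in the knockdown mice. Its groups overlapped, and the log2 fold change was 0.17 (SE 0.087, 95% interval -0.013 to 0.35, adjusted p = 0.22, edgeR). Over the fits that left out a mouse it ranged from 0.085, without knockdown mouse 3, to 0.22, without control mouse 1. With the offset for GC content and length it was 0.063, and Cyp4a10 was called in none of these fits. Cyp4a31 had 284.7, 220.7 and 251.0 normalized counts in the controls and 192.2, 217.0 and 220.5 in the knockdown mice, groups that did not overlap by a margin of less than 1 normalized count. Its log2 fold change was -0.27 (SE 0.13, adjusted p = 0.21, edgeR). Cyp4a32 had 736.4, 658.0 and 685.7 normalized counts in the controls against 664.6, 676.9 and 618.7 in the knockdown mice, with overlap and a log2 fold change of -0.086 (adjusted p = 0.59, edgeR). The fold change of Cyp4a32 was -0.24 with the offset for GC content and length (adjusted p = 0.056, edgeR). It ranged from -0.12 to -0.042 over the fits that left out a mouse. Cyp4a31 and Cyp4a32 are described mainly as Cyp4a10-like sequences. The sum of these 3 close copies was 1908 ± 127 and 1947 ± 88.6 normalized counts (SD, n = 3 each), with overlapping groups.

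Among the 10 members, the normalized counts of 4 genes were higher in every knockdown mouse than in every control mouse, and those of 2, Cyp4a14 and Cyp4a31, were lower. Over all tested genes these shares were 16.5% and 16.4%. The fitted values spanned from -0.46 for Cyp4a14 to 0.48 for Cyp4a12a, with both ends in the Cyp4a cluster.

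**Figure D2:**
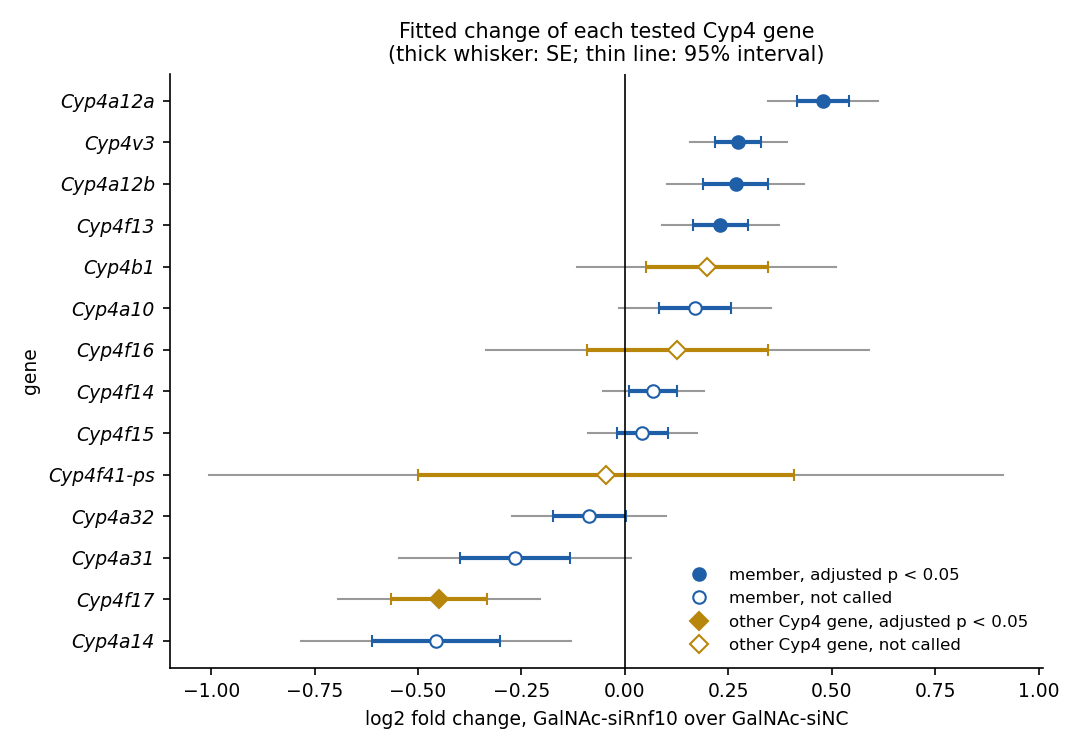
Log2 fold change (x axis, GalNAc-siRnf10 over GalNAc-siNC) of the 14 tested Cyp4 genes, 10 members as circles and 4 other genes as diamonds, filled where the adjusted p was under 0.05. Thick whiskers are standard errors and thin lines 95% intervals, and the members run from -0.46 to 0.48 with 4 filled circles, all to the right of 0.

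The same counts can be read as ratios within single libraries, which do not depend on library size. Several of the pairs join genes from opposite ends of the fold changes above, so the ratios restate those values and add no independent evidence. The log2 ratio of Cyp4a12a to Cyp4a14 counts was 4.78, 4.96 and 4.88 in the control mice and 5.97, 5.55 and 5.94 in the knockdown mice. The log2 ratio of Cyp4a10 to Cyp4a14 was 2.16, 2.38 and 2.15 in the controls and 2.95, 2.54 and 3.10 in the knockdown mice. In each case every knockdown mouse had the higher ratio. Cyp4a10 over Cyp4a31 was 1.94 ± 0.11 in the controls and 2.37 ± 0.11 in the knockdown mice on the log2 scale (mean ± SD, n = 3 each). Cyp4a12a over Cyp4a12b was 1.87 ± 0.086 and 2.08 ± 0.046, and Cyp4f13 over Cyp4f17 was 2.38 ± 0.074 and 3.06 ± 0.086. These were also without overlap. The ratios of Cyp4a32 to Cyp4a31 and of Cyp4f14 to Cyp4f15 overlapped between the groups. Of the 7 ratios computed, the 5 without overlap each gave p = 0.1 in the exact two-sided permutation test, the smallest value possible with 3 mice against 3, so no ratio could pass 0.05 before or after adjustment.

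**Figure D3:**
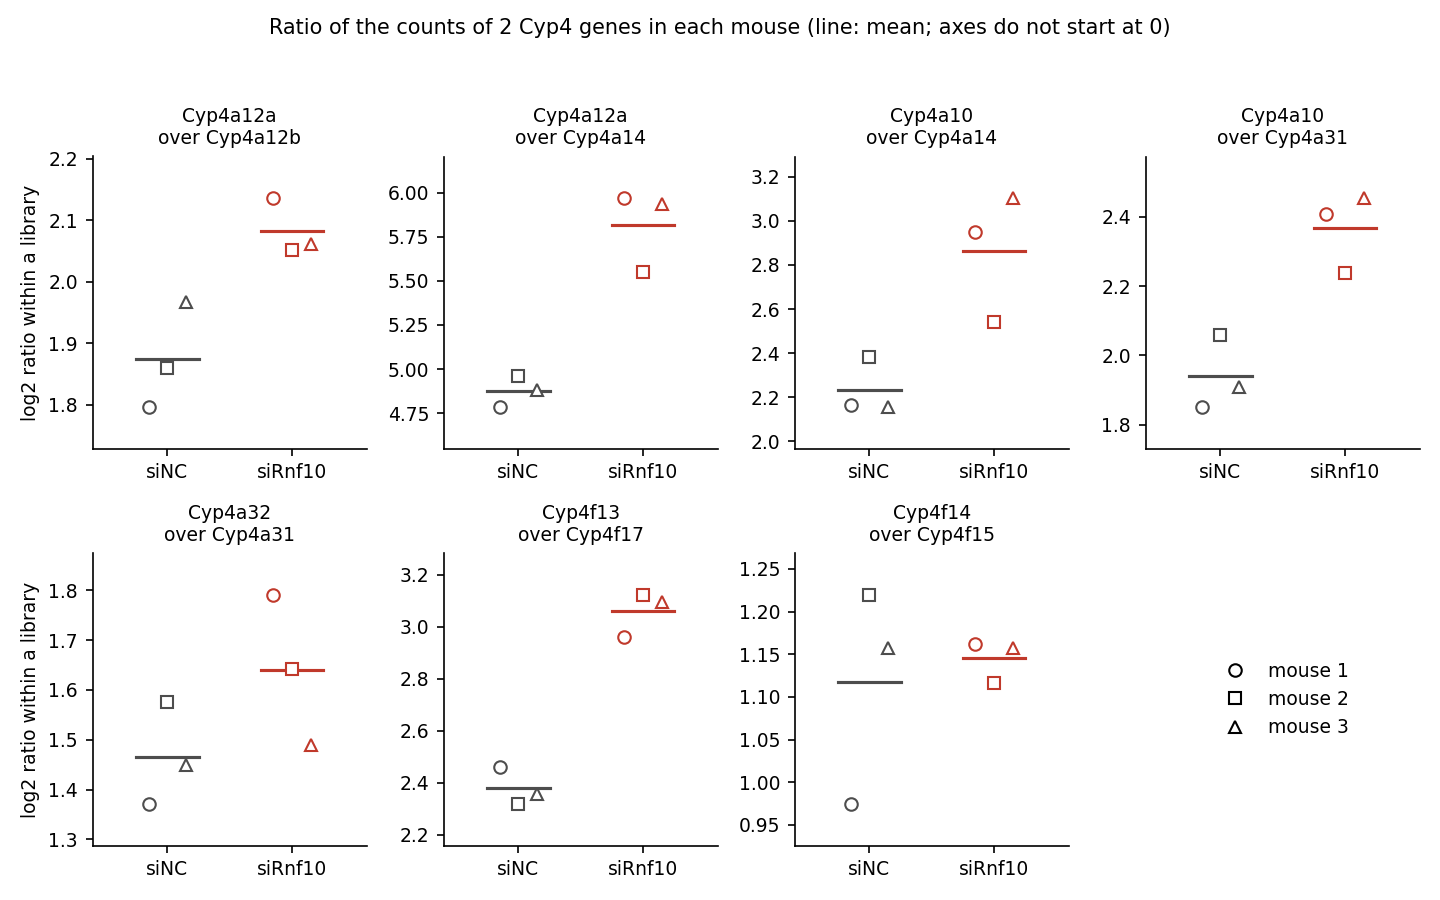
Log2 ratio of the counts of 2 Cyp4 genes within each library (y axes, which do not start at 0), with 1 symbol per mouse, gray for GalNAc-siNC and red for GalNAc-siRnf10, and lines at the group means. Cyp4a12a over Cyp4a14 lies between 4.78 and 4.96 in the controls and between 5.55 and 5.97 in the knockdown mice, while Cyp4f14 over Cyp4f15 overlaps.

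To compare levels between genes, normalized counts were divided by the length of the gene model in kilobases. In the controls Cyp4f14 was the highest at 3419 ± 195 normalized counts per kilobase, above Cyp4v3 at 2679 ± 135 and Cyp4a12a at 2481 ± 185, and the latter pair overlapped (SD, n = 3). Cyp4f15 followed at 1670 ± 67.8 and Cyp4a12b at 685 ± 65.8. Cyp4f13, Cyp4a10 and Cyp4a32 came next at 483, 456 and 451 per kilobase, each overlapping its neighbor in the order. Cyp4a31 at 100 ± 12.7 and Cyp4a14 at 79.0 ± 10.3 per kilobase were the lowest members and overlapped. In the knockdown mice Cyp4a12a, at 3458 ± 84.6 per kilobase, stood in the second place, above Cyp4v3 at 3240 ± 45.5, and its values overlapped those of Cyp4f14 at 3586 ± 48.2. The length of Cyp4f13 counts all 4441 bases of its merged exons, against 1752 in the transcript used for the sequence comparison, and the Cyp4a32 model of 1536 bases is almost wholly coding, so the per-kilobase levels of these genes depend on their models. The levels of Cyp4a12a and Cyp4a12b, and so their places and shares, also depend on how reads that match both were counted.

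As a share of the summed per-kilobase level of the 10 members, Cyp4a12a took up 19.8% ± 1.18 in the controls and 23.9% ± 0.393 in the knockdown mice (SD, n = 3 each). The 6 Cyp4a members together made up 34.0% and 37.1%, and the 3 Cyp4f members 44.6% and 40.6%, without overlap. These shares sum to a whole, so a higher share of some members lowers that of others. In terms of reads, the 10 members took up between 0.114% and 0.122% of a control library and between 0.130% and 0.135% of a knockdown library.

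**Figure D4:**
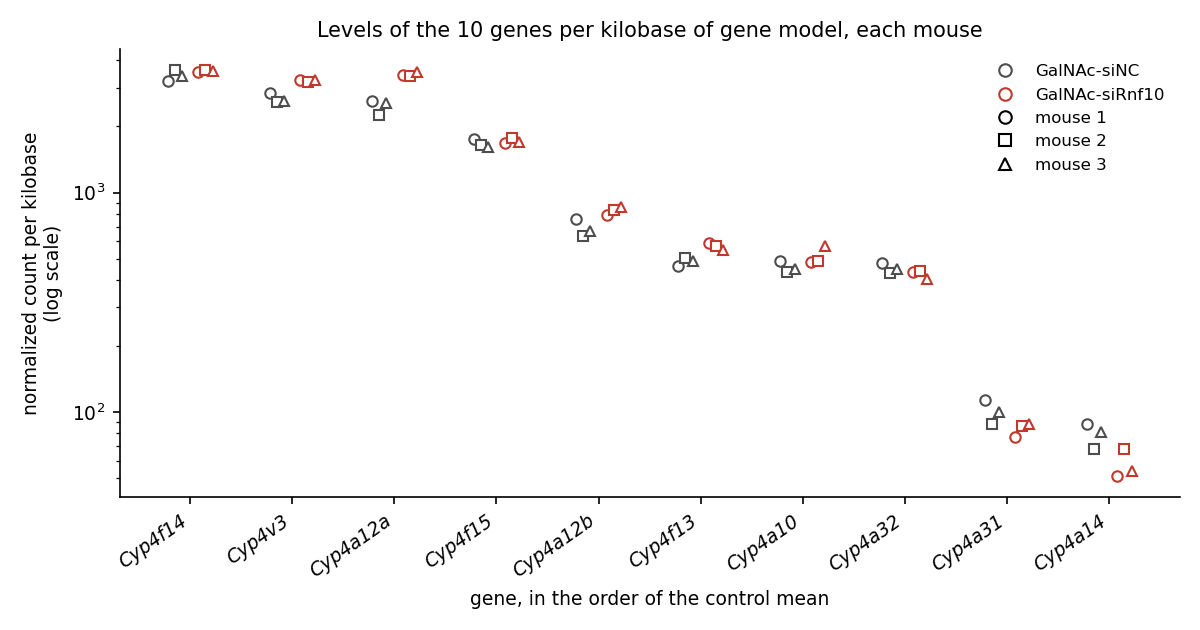
Normalized count per kilobase of gene model (y axis, log scale) of the 10 genes in each mouse, in the order of the control mean, gray for GalNAc-siNC and red for GalNAc-siRnf10, with 1 symbol per mouse. Levels run from 3419 for Cyp4f14 to 79.0 for Cyp4a14 in the control means, and Cyp4a12a is the member whose red points move from beside Cyp4v3 to beside Cyp4f14.

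Of the other Cyp4 genes, Cyp4f17 was the only one called, and it fell. Its normalized counts were 372.6, 446.6 and 421.9 in the controls and 334.6, 289.7 and 284.3 in the knockdown mice, without overlap. The log2 fold change was -0.45 (SE 0.12, adjusted p = 0.014, edgeR), opposite in sign to that of Cyp4f13, also on chromosome 17. The call of Cyp4f17 was kept in 3 of the 6 fits that left out a mouse. Cyp4b1 (log2 fold change 0.20), Cyp4f16 (0.13) and the pseudogene Cyp4f41-ps (-0.045) were not called, with adjusted p between 0.43 and 0.96 in edgeR. Cyp4f18, Cyp4f39 and Cyp4b1-ps2 had at most 12 counts in any library and were not tested. The other 10 entries had no count in any library.

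Promoter windows of some members were searched for letters bound by nuclear receptors and by STAT5. RefSeq promoter windows of 300 bases, 250 before and 50 after the start of transcription (GRCm38.p6), were at hand for 5 members in 8 windows, Cyp4a32, Cyp4f13, Cyp4f14, Cyp4f15 and Cyp4v3. Of the called members, Cyp4a12a and Cyp4a12b were therefore not searched. The receptor half-site AGGTCA, on either strand, was in none of the 8 windows and in 16.3% of 32851 promoters. Its direct repeat with 1 base between, AGGNCANAGGNCA, was in none of the 8 and in 0.381% of all. The STAT letters TTCNNNGAA were in the window of Cyp4f13 and in 8.30% of all promoters. A match is not a bound site, and these letters were looked for in the given windows only. The parts of the Cyp4f13 window (chr17:32947403-32947611, minus strand) and the Cyp4v3 window (chr8:45333217-45333413, minus strand) that lie before the annotated first exon are shown because these are the 2 called members with a window. Neither part holds any of the 3 letter patterns, and the Cyp4f13 match lies beyond it.
Cyp4v3: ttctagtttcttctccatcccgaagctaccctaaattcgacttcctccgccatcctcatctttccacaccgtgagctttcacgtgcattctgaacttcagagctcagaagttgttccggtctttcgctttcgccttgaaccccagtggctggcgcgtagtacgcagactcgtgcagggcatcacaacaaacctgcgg
Cyp4f13: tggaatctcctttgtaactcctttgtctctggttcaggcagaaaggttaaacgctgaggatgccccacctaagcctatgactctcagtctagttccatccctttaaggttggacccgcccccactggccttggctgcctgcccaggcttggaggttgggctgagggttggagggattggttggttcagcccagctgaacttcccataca

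The genes that act with or after the Cyp4 reaction were read from a list of 29, of which 28 were tested. The calls were 8 higher and 3 lower, with a median log2 fold change of 0.090. With the offset for GC content and length they were 13 higher and 4 lower, and without GalNAc-siNC mouse 1 they were 11 higher and 5 lower. Of the electron-transfer genes, Por rose by 0.29 and Cyb5a by 0.47 on the log2 scale, while Cyb5b (0.15, adjusted p = 0.098, edgeR) and Cyb5r3 (0.096, adjusted p = 0.33, edgeR) were not called. Of the alcohol and aldehyde dehydrogenases, Adh1, Adh7 and Aldh3a2 were called higher, whereas Adh4 (-0.19, adjusted p = 0.052, edgeR), which was lower in every knockdown mouse, and Adh5 (0.14, adjusted p = 0.11, edgeR) were not called and Aldh3a1 was not tested. Adh1 went from 34167 ± 368 to 48446 ± 1241 normalized counts (log2 fold change 0.50, adjusted p = 1.5e-06, edgeR), Adh7 rose by 0.39 and Aldh3a2, the fatty aldehyde dehydrogenase, by 0.42. Abcd2, a peroxisomal importer of very long chain acyl-CoA, rose from 221 ± 15.3 to 433 ± 37.2 normalized counts, and the peroxisomal thioesterase genes Acot3 and Acot4 rose by 2.36 and 0.46 on the log2 scale. Acot3 was a scarce gene, at 18.2 ± 4.69 normalized counts in the controls. Among the genes that fell were the peroxisomal oxidase gene Acox3, by 0.33 on the log2 scale, and the carnitine acetyltransferase gene Crat, by 0.52 (799 ± 73.1 to 558 ± 25.4 normalized counts). Ehhadh, which takes part in the breakdown of dicarboxylic acids, had a log2 fold change of 0.09 (adjusted p = 0.38, edgeR). Scp2, which encodes a peroxisomal thiolase and lipid carrier and was the most abundant gene of the list per kilobase, was not called (-0.05, adjusted p = 0.54, edgeR).

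PPARα target genes outside the Cyp4 family were split in direction. Of 37 tested, 6 were called higher and 4 lower, with a median log2 fold change of 0.046. Without GalNAc-siNC mouse 1 the calls were 7 higher and 7 lower. Acot1, Acot3, Acot4, Aldh3a2, Pex11a, a peroxisome division factor, and Angptl4, a secreted inhibitor of lipoprotein lipase, rose. The call of Acot1 was near the threshold (adjusted p = 0.049, edgeR). Angptl4 went from 2671 ± 234 to 3606 ± 67.9 normalized counts (0.43, adjusted p = 0.00040, edgeR). Crat, the lipid droplet protein gene Plin2 (-0.38) and the monoglyceride lipase gene Mgll (-0.21) were among those that fell. The most abundant gene of the list per kilobase, the fatty acid binding protein gene Fabp1, was not called (0.21, adjusted p = 0.62, edgeR), and the list shares members with the one above, Acot3, Acot4, Crat and Aldh3a2 among them. Ppara itself had 3009 ± 177 and 3012 ± 18.1 normalized counts, with a log2 fold change of 0.0015 (95% interval -0.14 to 0.14, adjusted p = 0.99, edgeR).

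Regulators of the Cyp4 genes and of sex-biased liver expression were called in 6 of 23 cases, 3 higher and 3 lower, with a median of -0.016. Nr1i3, which encodes the nuclear receptor CAR, rose from 619 ± 66.2 to 955 ± 56.5 normalized counts (0.63, adjusted p = 0.00017, edgeR). Nr1i2, encoding PXR, rose by 0.37 and the growth hormone receptor gene Ghr by 0.20. Stat5a (-0.71) and Stat5b (-0.35), the transcription factors that carry the growth hormone signal, fell. So did Rxrg (-0.45), a scarce partner of nuclear receptors at 186 ± 4.09 normalized counts in the controls, with a call near the threshold (adjusted p = 0.046, edgeR). Rxra (-0.061, adjusted p = 0.52) and Ppargc1a (0.13, adjusted p = 0.61) were not called in edgeR, nor was the most abundant regulator per kilobase, Hnf4a, the hepatocyte factor (0.08, adjusted p = 0.35, edgeR).

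Since Cyp4a12a is known as a male-biased gene, other sex-biased liver genes were read beside it. Of 13 male-biased genes 2 were called higher, the hydroxylase gene Cyp2d9 (0.25) and the organic anion carrier gene Slco1a1 (0.23). Called lower were 3, the oxysterol hydroxylase gene Cyp7b1 (-0.19), Cyp2u1 (-0.32) and the urinary protein gene Mup21 (-0.55), and the list median was -0.025. Serpina1e, the most abundant of them per kilobase, was not called (-0.08, adjusted p = 0.33, edgeR). Of 15 female-biased genes, 10 did not reach the filter on low counts. Cyp2a4, at 3.19 ± 2.50 normalized counts in the controls and 24.8 ± 6.18 in the knockdown mice, passed that filter only through the group in which it was higher, so its call is not read as a result. Among the 4 others tested, the monooxygenase gene Fmo2 rose from 238 ± 47.7 to 554 ± 22.3. The thioesterase gene Acot1 rose from 159 ± 48.3 to 238 ± 14.6 (adjusted p = 0.049, edgeR). Atp6v0d2, a proton pump subunit, fell from 99.6 ± 7.28 to 56.7 ± 9.41, and Cyp17a1, the most abundant per kilobase, was not called (-0.13, adjusted p = 0.63, edgeR). Among 10 tested genes of eicosanoid handling, the epoxide hydrolase gene Ephx1 (8803 ± 73.2 to 12851 ± 499 normalized counts, 0.55) and the prostaglandin reductase gene Ptgr2 (0.34) were called higher. None was called lower, although the log2 fold changes of 4 were negative, and the median was 0.11. Ephx2, the soluble epoxide hydrolase and the most abundant of them per kilobase, was not called (0.13, adjusted p = 0.10, edgeR).

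**Figure D5:**
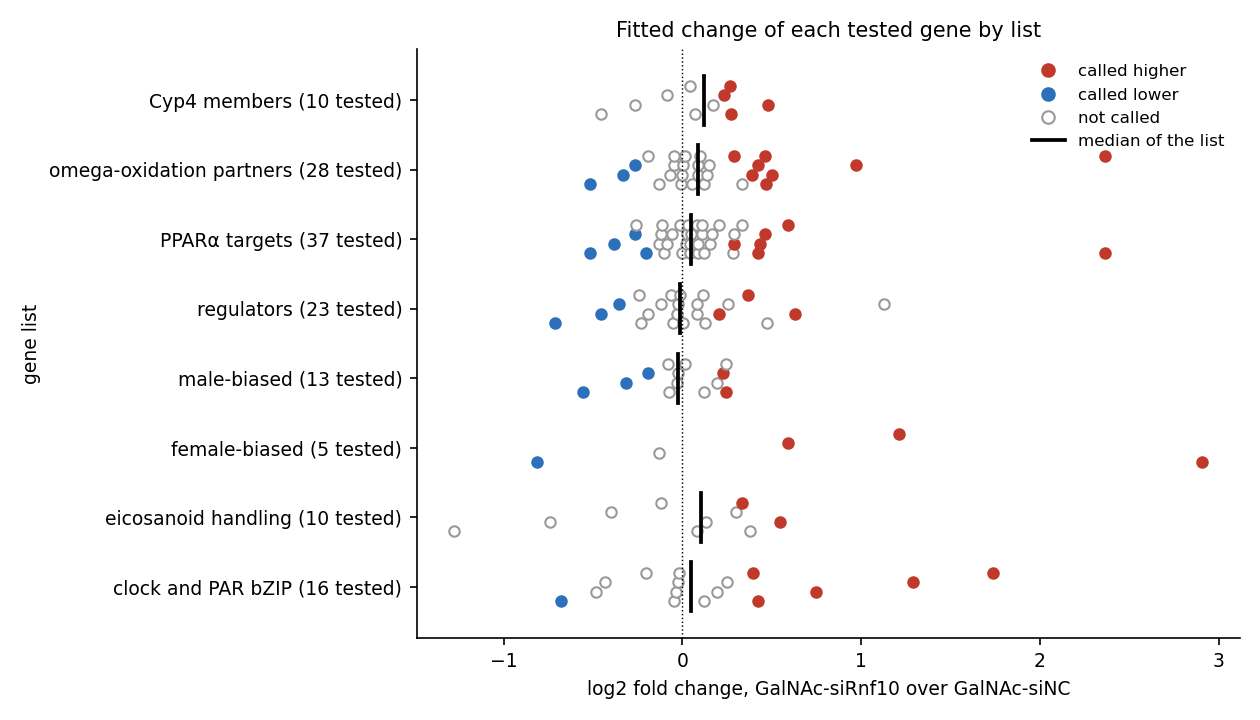
Log2 fold change (x axis, GalNAc-siRnf10 over GalNAc-siNC) of each tested gene in 8 lists (y axis, with the number tested), red where called higher, blue where called lower and open where not called, with black lines at the list medians (none for the female-biased list, most of which was not tested). The 10 Cyp4 members have 4 red points and no blue one, whereas the 37 PPARα targets have 6 red and 4 blue.

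Markers of liver cells moved with the groups, and their part in the Cyp4 values was not tested. As a check of the tissue label, all 9 hepatocyte markers in the table were expressed and tested, and Alb was the most abundant. Their summed level was 57410, 54970 and 56830 CPM (counts scaled to a common library total) in the control mice and 86500, 84780 and 83620 in the knockdown mice. Alb alone had a mean of 49960 CPM over the 6 libraries and so made up most of this sum. Of the 9, 5 were called higher (Alb, Ttr, Tat, Serpina1c and Cps1). Apoa2 (0.63, adjusted p = 0.080, edgeR) was above the controls in every knockdown mouse and was not called. Asgr2 (-0.12, adjusted p = 0.21, edgeR) was below the controls in every knockdown mouse and was not called. Apoa1 and Asgr1 overlapped between the groups. Alb took up between 3.72% and 4.36% of control libraries and between 5.93% and 6.08% of knockdown libraries. The summed level of 11 pericentral hepatocyte markers, led by Cyp2e1, was 9788 ± 88.5 and 11830 ± 96.7 CPM (6 called higher, and Axin2 called lower). That of 10 periportal markers, led by Pck1, was 6046 ± 473 and 8525 ± 101 (6 called higher, and Cdh1 called lower). The 7 cholangiocyte markers, led by Spp1, had summed levels of 69.7 ± 0.705 and 38.8 ± 0.480 CPM, and Spp1 was the 1 called, lower. The 8 neutrophil markers, led by Csf3r, had 4.12 ± 0.514 and 2.34 ± 0.0901 CPM, of which 2 were tested and 1, S100a9, was called lower. The 10 Kupffer cell markers, led by Clec4f, overlapped between the groups at 250 ± 24.6 and 251 ± 7.48 CPM, with none called. The 7 endothelial markers, led by Stab2, summed to 74.3 ± 0.633 and 78.1 ± 2.34 CPM, with Clec4g and Lyve1 called higher, while Stab2 (-0.26, adjusted p = 0.054, edgeR) and Cdh5 (-0.25) were below the controls in every knockdown mouse and were not called. The 7 stellate markers, led by Dcn, summed to 122 ± 2.30 and 139 ± 1.31 CPM, with Dcn and Reln called higher. The log2 fold changes of 4 of the 7 were negative and not called, Col1a1 (-0.26), Lrat (-0.27), Pdgfrb (-0.25) and Acta2 (-0.10), and the list median was -0.105. Kidney, which also uses Cyp4a and Cyp4b genes, left little trace, with 4 of 8 markers (Slc12a1, Kap, Aqp2 and Cyp24a1) at 0 in all libraries and summed levels of 1.97 and 1.64 CPM. The 7 intestinal markers, led by Apoa4, summed to 77.5 ± 2.13 and 82.1 ± 1.13 CPM, and Sis, Alpi and Cdx2 were at 0. Fabp2 was called higher, while Apoa4 (-0.24, adjusted p = 0.055, edgeR) was below the controls in every knockdown mouse and was not called.

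Clock genes differed as well, which bears on comparisons of livers because many hepatic genes cycle over the day. Of 16 tested, Per1 (1.74 on the log2 scale), Ciart (1.29), Cry1 (0.75), Per2 (0.42) and Per3 (0.40) were called higher and Nr1d1 (-0.68) was called lower, with a list median of 0.049. The hour at which each liver was collected is not given in the sources used here, and its part in the Cyp4 values was not tested. The cell markers and clock genes named here were picked with their values in view.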

How the data were processed

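Liver RNA of 6 mice was sequenced, 1 library per mouse, and samples were grouped by the treatment in their labels. Per the labels, the authors prepared stranded mRNA libraries and sequenced paired reads of 150 bases. Their notes name GRCm38 (mm10), HISAT2 and DESeq2, while the counting tool, its strand setting and its treatment of reads with several matches are not given in the sources used here. The deposited values are raw counts per gene, with no normalization, and 346 identifiers without a symbol were kept in library sizes. The lengths of gene models were deposited beside the counts.

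From the counts, edgeR 4.0.16 (R 4.3.3) was used with its filter on low counts, TMM scaling and a robust quasi-likelihood F-test of GalNAc-siRnf10 against GalNAc-siNC. p-values were adjusted by Benjamini-Hochberg over 14046 genes, and genes were called at 0.05. Intervals are at 95%. Normalized counts were scaled to the mean effective library size of 29667449, and the biological coefficient of variation was 9.28%. On simulated data for this comparison, 74.5% of 200 genes changed by 1 on the log2 scale were recovered (13819 genes tested), 46.0% of 200 changed by 0.5 (13806 genes), and 1 of 13827 genes was called when none changed. The simulated counts followed the model and the dispersions fitted here, with no library set apart. These rates therefore do not cover a library that differs from its group, such as GalNAc-siNC mouse 1. Single ratios and sums were compared by exact two-sided permutation tests. The floor of 3 counts covers counting error only.

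Coding sequences came from GENCODE M21 transcripts and promoters from RefSeq. Genes named in the text were the members, Rnf10, Cpt1a, Ppara, Rxra, Ppargc1a, other Cyp4 genes with a mean of at least 10 counts, and, of the lists of partners, targets, regulators, sex-biased and eicosanoid genes, the called ones and the most abundant one per kilobase, plus the 5 genes most like Cyp4a14 and Cyp4a12a. The lists' counts include 1 called gene that is not reported here. The members and lists were chosen with earlier results of these data known. Alternatives were other scalings and filters, DESeq2 1.42.0, limma 3.58.1 voom with quality weights, a block on mouse number, an offset for GC content and length, a threshold of 0.01 and leaving out each mouse. Mice with the same number deviated together with correlations between -0.034 and 0.027, so the numbers were taken not to pair the animals.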

Additional observations from a re-analysis of the deposited data

How the results depend on the processing

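Rnf10 was called in all 15 alternative fits, with log2 fold changes between -1.27 and -1.08, and Cyp4a12a and Cyp4v3 were called higher in the same 15. Leaving out 1 mouse each gave between 1053 and 2864 called genes against 1965, and between 2 and 4 called members. The counts were 1053 without GalNAc-siRnf10 mouse 1 and 1128 without mouse 2 or mouse 3 of that group, and the cause beyond the smaller number of mice was not tested. Called members were 2 without GalNAc-siNC mouse 3 and without GalNAc-siRnf10 mouse 1 or 3. Partner genes called ranged between 9 and 16 and PPARα targets between 7 and 14 in these fits. At an adjusted p under 0.01, 1042 genes and 2 members (Cyp4a12a and Cyp4v3) were called. The offset for GC content and length called 17 partner genes, also with the replicate block, against 11. Under that offset Cyp4a14 was called lower (-0.53, adjusted p = 0.012, edgeR; -0.54 with the block), as it was with no filter on low counts (-0.46, adjusted p = 0.036, edgeR), and Cyp4a12b was not called (0.18 in both fits). The sign turned for Cyp4f15 (-0.0112 and, with the block, -0.0066) and Rxra (0.080 in both) under the offset, for Cyp4f16 without GalNAc-siRnf10 mouse 3 (-0.18, within a range of -0.18 to 0.32 over the fits that left out a mouse), and for Ppara under upper quartile scaling (-0.0086), with no filter (-0.0034), at 10 counts in every mouse (-0.0031), without GalNAc-siNC mouse 3 (-0.048) and without GalNAc-siRnf10 mouse 3 (-0.0028), all uncalled. The cause was not tested.

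With the replicate number as a block, 1816 genes were called (1742 shared with the 1965), and the same 4 members, though the numbers were taken not to pair the mice. Scaling alternatives moved the median of all genes by at most 0.010 on the log2 scale. The standard errors of the members ran from 0.056 for Cyp4v3 to 0.15 for the scarce Cyp4a14, which sets how small a difference 3 mice a group could show at this depth.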

Other observations

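The genes whose normalized counts followed those of Cyp4a14 and Cyp4a12a most closely over the 6 mice were sought among 10932 genes outside the family with a mean of at least 50 normalized counts. For Cyp4a14 they were Ano10 (Pearson r = 0.996), Adcy7, Tmem127, the peroxisomal protease gene Lonp2 and Sp4 (r = 0.980), and 150 genes had r over 0.9. None of the 5 was called between the groups, with adjusted p between 0.10 and 0.75 in edgeR. For Cyp4a12a they were the aryl hydrocarbon receptor gene Ahr (r = 0.999), Fmo2, the monocarboxylate carrier gene Slc16a7, Coq10b and Ppat (r = 0.996), and 658 genes had r over 0.9. All 5 of these were called higher in GalNAc-siRnf10 livers, Ahr from 1120 to 1568 and Fmo2 from 238 to 554 normalized counts (means, n = 3 each). The 6 mice share the group difference and the scaling, so these coefficients are a description of the libraries only.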
